A study of Mus musculus with 6 samples.

Results

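The genes described here are 8 chemokine receptors, Ccr1, Ccr2, Ccr7, Ccr9, Cxcr3, Cxcr4, Cxcr6 and Cx3cr1, as measured in natural killer (NK) cells sorted from mouse spleen. They were found as all probes that the platform annotation of the array assigns to these symbols, with old symbols updated by gene ID, which gave 8 of the 17626 genes with a probe and 9 of the 45988 probes on the array, 2 for Ccr2 and 1 for each of the others. The groups were Kit+ cells, sorted as CD3-NK1.1+CD117+, and Kit- cells, sorted as CD3-NK1.1+CD117-, with 3 samples each. Both came from spleens of female C57Bl/6 mice aged 7 weeks, with no genetic change or treatment named in the labels. Magnetic beads enriched the splenocytes for NK cells, which were then sorted by NK1.1 and by CD117, the product of the Kit gene and receptor for stem cell factor. The labels name no antibody to CD3 for the sort itself, and they put NK-cell purity after it at around 98%. The labels do not give the number of mice in a sort, and they name more than 1 supplier without tying samples to either. The number in each title, 1 to 3, was taken to pair a Kit+ with a Kit- sample, and the comparison asks which receptors set CD117-bearing splenic NK cells apart.

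Chemokine receptors are G-protein-coupled receptors that steer the movement of immune cells. A bound chemokine activates Gi proteins, which set the cell moving up the chemokine gradient, after which arrestins and receptor kinases turn the signal off. In mice, Cxcr3, the receptor for the interferon-induced chemokines Cxcl9 and Cxcl10, is carried mostly by less mature NK cells, while Cx3cr1, the receptor for fractalkine, marks late stages of NK maturation. Cxcr4, the receptor for Cxcl12, holds cells in bone marrow. Cxcr6, the receptor for Cxcl16, is known for NK-like and innate lymphoid cells that patrol the liver. Ccr7 guides dendritic cells, naive T cells and B cells to the T-cell zones of lymph nodes and spleen, Ccr2 brings inflammatory monocytes out of the marrow, Ccr1 binds Ccl3 and Ccl5, and Ccr9 leads cells to the Ccl25 of thymus and small intestine.

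Kit stood at 10.68, 12.09 and 10.76 in Kit+ and at 7.73, 8.79 and 8.50 in Kit- samples 1 to 3 (normalized log2 intensity), which checks the labels and is no finding. All values named a level below are on this scale. The median raw signal lay between 74.1 and 99.9 on the Kit+ arrays and between 68.9 and 130.0 on the Kit- arrays. A probe was called above background on an array where it exceeded all but the top 5% of the 1176 probes for odorant and vomeronasal receptors there, a level between 6.63 and 6.94 on the Kit+ arrays and between 6.58 and 7.23 on the Kit- arrays, highest on Kit- 2. The share of all probes above it was 18.7% to 27.5% in Kit+ and 15.1% to 29.8% in Kit-. Cd3e and Cd3d, chains of the T-cell receptor complex, were above background on all 6 arrays. In bulk RNA of this kind, fewer cells of a type and less RNA per cell cannot be told apart.

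Of the 9 receptor probes, 4 were above background on all 6 arrays (Cxcr3, Cxcr4, Cxcr6 and 1 of the 2 Ccr2 probes), 3 on some (Ccr7, Cx3cr1 and Ccr1), and 2 on none (Ccr9 and the other Ccr2 probe). Since probes differ in how strongly they bind, the levels of different receptors were not set against each other. A filter on low values, a mean over the 6 arrays above the median of all probes, kept 8 of the 9 probes and 7 of the 8 genes, with Ccr9 below it. Among the 8 tested probes, 1 was higher in Kit+, Ccr7, and 0 were lower (limma with the sample number as a block, adjusted p under 0.05 over 22994 probes, with 2 higher and 1 lower at an unadjusted p under 0.05). Over all tested probes, 2.25% were called higher and 3.58% lower, 5.84% in all, and with so few probes 1 call is near that background. An unadjusted p under 0.05 was reached by 3 of the 8 receptor probes and by 19.4% of all. Without the block 0 of the 8 were called (limma, again 3 at an unadjusted p under 0.05), where 0.335% of all probes were higher and 0.809% lower, 1.14% in all. The groups did not overlap for 3 of the 8 (Ccr7, Cxcr3 and Cx3cr1), against 16.3% of all tested probes, and 5 of the 8 moved in the same direction in all 3 pairs, against 39.0%. The median log2 fold over the 7 genes, by the brightest probe of each, was 0.05, against 0.03 over all 11743 genes.

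**Figure D1:**
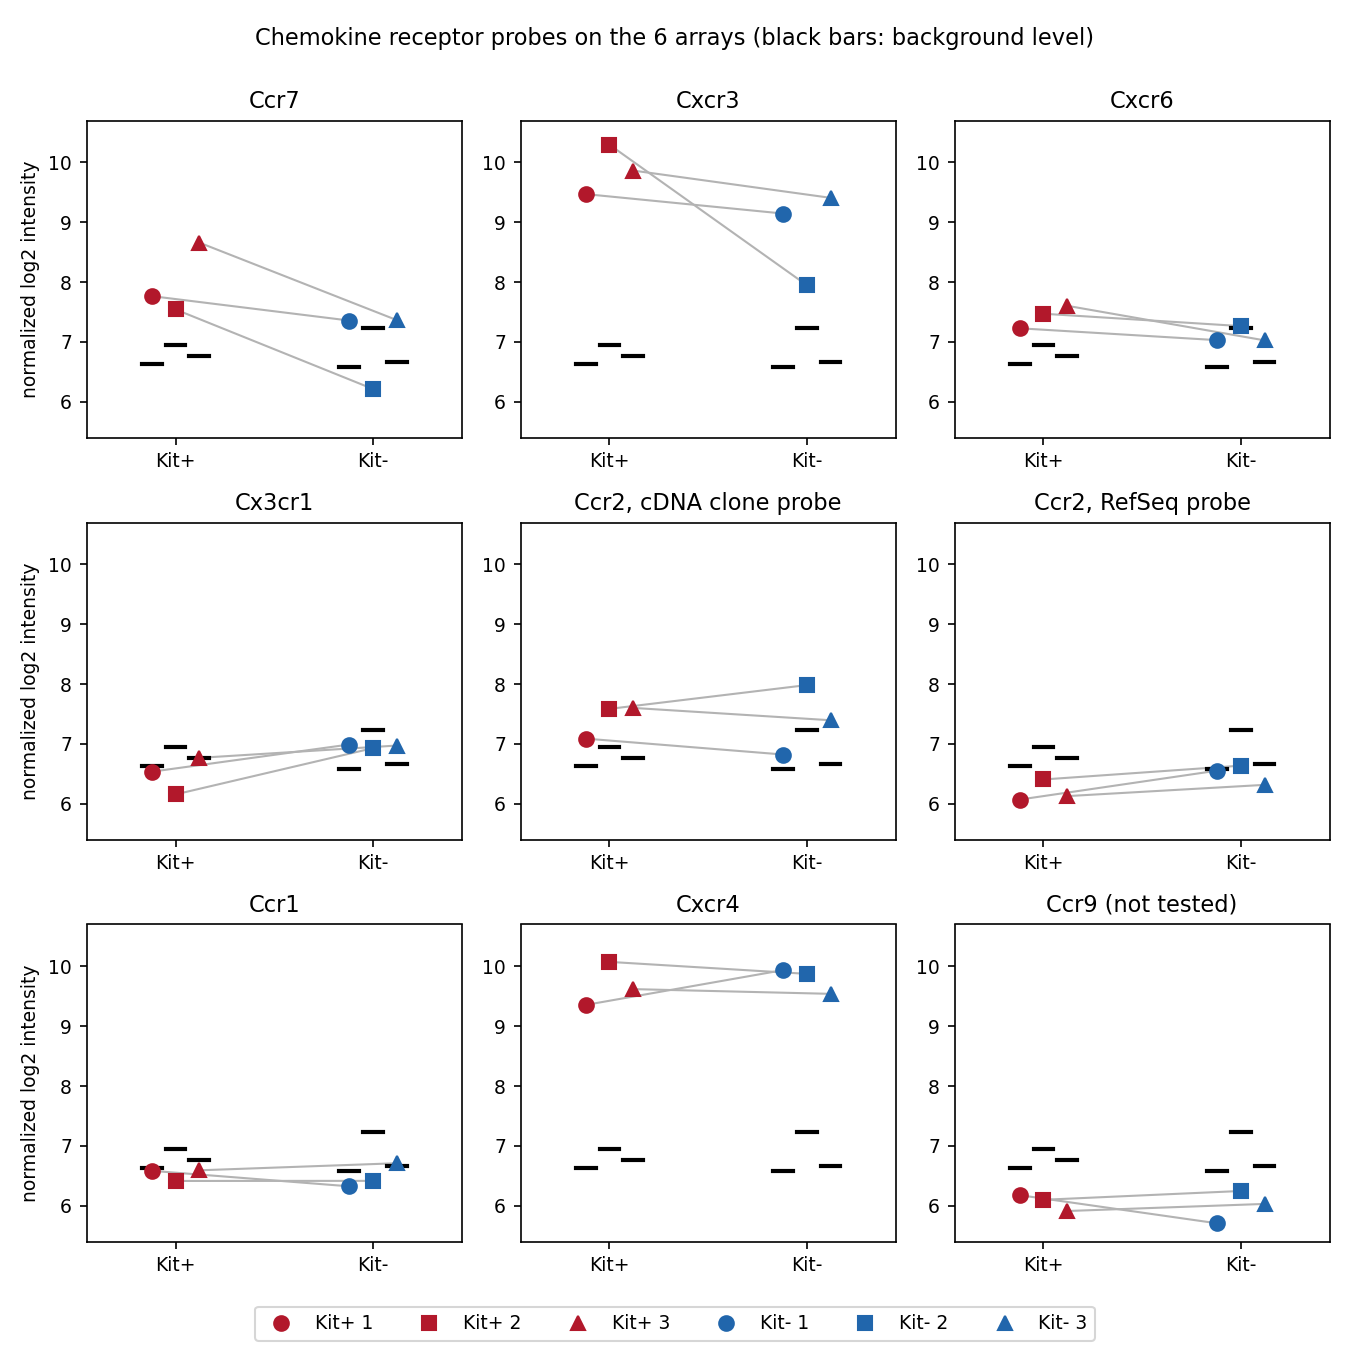
Normalized log2 intensity of the 9 chemokine receptor probes, Kit+ samples left and Kit- samples right in each panel, with grey lines joining samples of the same number and black bars giving the background level of each array. Ccr7 and Cxcr3 are higher in the Kit+ sample of every number and Cx3cr1 is lower, while the Ccr9 probe lies below the bars on all 6 arrays.

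Ccr7, the receptor for Ccl19 and Ccl21, was the 1 receptor that rose, 2.01-fold. Its level was 7.77, 7.54 and 8.66 in Kit+ samples 1, 2 and 3, against 7.36, 6.21 and 7.37 in Kit- samples 1, 2 and 3. Every Kit+ sample lay above every Kit- sample, Kit+ 3 was the highest, and Kit- 2 was the 1 array on which the probe was not above background. The mean level of Kit+ cells was 7.99 ± 0.59, against 6.98 ± 0.66 for Kit- cells (SD, n = 3 each), and the differences within pairs were 0.41, 1.33 and 1.29. The log2 fold was 1.01 (SE 0.21, 95% interval 0.52 to 1.50, limma adjusted p = 0.0332), a size that 3.69% of tested probes reached in either direction. The raw signal was 359, 154 and 288 in Kit+ against 343, 93.8 and 145 in Kit-, so the pair numbered 1 was nearly level before normalization. In the deposited value table the log2 fold was 1.05 (limma adjusted p = 0.0457).

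The call of Ccr7 rests on the pairing. Without the block the limma adjusted p was 0.379, with median centring of the arrays in place of quantile normalization it was 0.156 (log2 fold 0.78), without the pair numbered 2 it was 0.191, and without the pair numbered 3 it was 0.0927. Some markers of cell types that carry Ccr7 moved with the same groups. The gene lists here and below were chosen with earlier results of these data known, so their counts are descriptive. Of 8 tested dendritic cell markers, 4 were higher in Kit+ and 0 lower (H2-Aa, Batf3, H2-Ab1 and Cd74; limma with the block, where 3.29% of all genes were higher), and their summed linear level was 5183, 3971 and 9986 in Kit+ samples 1 to 3 against 2645, 1785 and 3335 in Kit-. Itgax, Siglech and Zbtb46 of the same list had log2 folds of 0.17, -0.19 and -0.22, none past the threshold. H2-Ab1 had 3 tested probes, 1 of them with a sign opposite to the brightest. Cd209a was above background on no array, and Clec9a and Flt3 were too dim to be tested. Of 9 tested T-cell markers 2 were higher (Cd3d and Cd28), with sums of 4969 to 5945 in Kit+ and 3132 to 3953 in Kit- and with Cd4, Cd5 and Cd8a above background on no array. Cd3e of the same list went the other way, with -0.81 on the log2 scale, lower in Kit+ in all 3 pairs and not past the threshold (limma adjusted p = 0.126). Of 6 tested B-cell markers 2 were higher (Cd79b and Blnk), with sums of 756, 696 and 1698 in Kit+ against 546, 626 and 797 in Kit-, and Pax5 was above background on no array. Without the block 1 dendritic cell marker, 0 T-cell markers and 0 B-cell markers were called higher (limma; with the block 4, 3 and 3 were higher and 0, 1 and 0 lower at an unadjusted p under 0.05). With the mean of each gene's probes in place of the brightest, Cd74, Cd28, Cd79b and Blnk were no longer called, with limma adjusted p of 0.0538, 0.186, 0.109 and 0.0736. Kit+ 3 held the highest Ccr7 level and the highest sums of all 3 lists. The part of these cells in the Ccr7 difference was not tested.

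Cxcr3 had a higher level in all 3 Kit+ samples but did not pass the threshold. Its level was 9.47, 10.29 and 9.86 in Kit+ samples 1, 2 and 3, against 9.14, 7.95 and 9.41 in Kit- samples 1, 2 and 3. The groups did not overlap, though the lowest Kit+ value lay only just above the highest Kit- value, and Kit- 2 was far below the rest. Kit+ cells averaged 9.88 ± 0.41, against 8.83 ± 0.78 for Kit- cells (SD, n = 3 each), and the differences within pairs were 0.32, 2.35 and 0.46. The log2 fold was 1.04 (SE 0.36, 95% interval 0.21 to 1.88, limma adjusted p = 0.151), or 2.06-fold, a size that 3.42% of tested probes reached. Without the pair numbered 2 it was 0.39 (limma adjusted p = 0.352). Without the pair numbered 1 it was 1.40 and past the threshold (limma adjusted p = 0.00599). That fit held 2 pairs, which differed by 2.35 and 0.46, and limma draws the spread of each probe toward that of all probes. The p-value of that fit therefore says little about the spread of Cxcr3 itself. The raw signal was 1554, 782 and 646 in Kit+ and 1397, 167 and 603 in Kit-, higher in the Kit+ sample of each pair and lowest on Kit- 2, but with groups that overlapped.

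Cx3cr1 had a lower level in all 3 Kit+ samples and did not pass either. Its level was 6.54, 6.16 and 6.77 in Kit+ samples 1, 2 and 3, against 6.99, 6.93 and 6.97 in Kit- samples 1, 2 and 3. The 3 Kit- samples were nearly alike, and every Kit+ sample lay below them. Kit+ cells averaged 6.49 ± 0.31, against 6.96 ± 0.03 for Kit- cells (SD, n = 3 each). The log2 fold was -0.48 (SE 0.17, 95% interval -0.87 to -0.08, limma adjusted p = 0.162), or 1.39-fold lower in Kit+. The probe was dim and exceeded background on Kit+ 3, Kit- 1 and Kit- 3 only, and its raw signal was 98.5, 91.4 and 92.7 in Kit+ against 242, 128 and 106 in Kit-. The log2 fold of this dim probe was -0.72 with a normexp offset of 16 in place of 50 (limma adjusted p = 0.135).

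Cxcr6 stood slightly higher in the Kit+ sample of each number. Its level was 7.23, 7.47 and 7.60 in Kit+ samples 1, 2 and 3, against 7.03, 7.26 and 7.03 in Kit- samples 1, 2 and 3. The groups overlapped, as Kit- 2 lay above Kit+ 1. The log2 fold was 0.33 (SE 0.16, 95% interval -0.05 to 0.70, limma adjusted p = 0.335) and the interval includes both no difference and one of 0.70.

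Cxcr4 was bright in both groups. Its level was 9.36, 10.08 and 9.62 in Kit+ samples 1, 2 and 3, against 9.94, 9.88 and 9.54 in Kit- samples 1, 2 and 3. The groups overlapped, and the differences within pairs, -0.58, 0.20 and 0.08, had no common direction. The log2 fold was -0.10 (SE 0.19, 95% interval -0.55 to 0.34, limma adjusted p = 0.873).

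**Figure D2:**
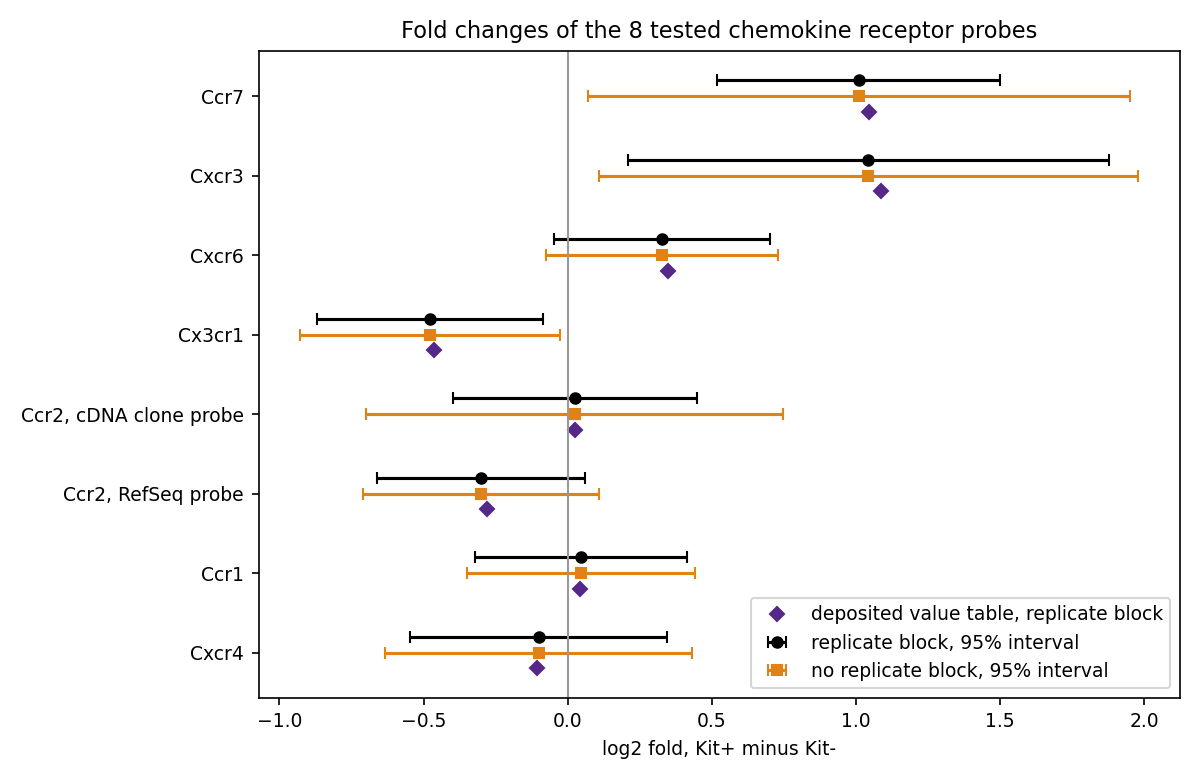
Log2 fold, Kit+ minus Kit-, of the 8 tested receptor probes with 95% intervals from limma with and without the sample number as a block, and the fold from the deposited value table. The interval of Ccr7 with the block runs from 0.52 to 1.50, that of Cxcr3 from 0.21 to 1.88 and that of Cx3cr1 from -0.87 to -0.08, while the other intervals include 0.

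The 2 Ccr2 probes disagreed. The probe named from a RefSeq transcript was above background on no array, with levels of 6.07, 6.41 and 6.13 in Kit+ samples 1 to 3 against 6.55, 6.64 and 6.32 in Kit- samples 1 to 3, and its log2 fold of -0.30 ± 0.16 (SE, by limma with adjusted p = 0.366) compares signals at background. The probe named from a cDNA clone was above background on all 6 arrays, with levels of 7.09, 7.59 and 7.60 in Kit+ samples 1 to 3 against 6.82, 7.98 and 7.40 in Kit- samples 1 to 3. Its log2 fold was 0.02 (SE 0.18, 95% interval -0.40 to 0.45, limma adjusted p = 0.972), and its sign turned under 6 of 18 alternatives. This probe was brightest on Kit- 2 and dimmest on Kit- 1, the arrays with the highest (7.23) and the lowest (6.58) background level. Over the 6 arrays it correlated at r over 0.9 with 685 of 11431 genes, against 26 to 190 genes for the other tested receptors.

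Ccr1 and Ccr9 were at the limit of detection. Ccr1 had levels between 6.41 and 6.59 in Kit+ and between 6.32 and 6.71 in Kit-, was above background on Kit- 3 alone, and differed by a log2 fold of 0.05 ± 0.16 (SE, by limma with adjusted p = 0.937). Ccr9 had levels between 5.91 and 6.18 in Kit+ and between 5.71 and 6.25 in Kit-, below background on all 6 arrays, and was not tested. At this signal no difference in either gene was detectable.

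The differences within pairs were also read from the raw signal. Before normalization the median log2 ratio of Kit+ over Kit- over all tested probes was -0.55 for the pair numbered 1, 0.02 for number 2 and 0.03 for number 3. The raw log2 ratios of Ccr7 were 0.07, 0.72 and 0.98 for numbers 1, 2 and 3, those of Cxcr3 0.15, 2.23 and 0.10, those of Cx3cr1 -1.30, -0.49 and -0.20, and those of Cxcr6 -0.30, 0.10 and 0.40. Relative to the median of all probes, Ccr7, Cxcr3 and Cxcr6 were therefore higher in Kit+ and Cx3cr1 lower in all 3 pairs also on the raw scale.

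**Figure D3:**
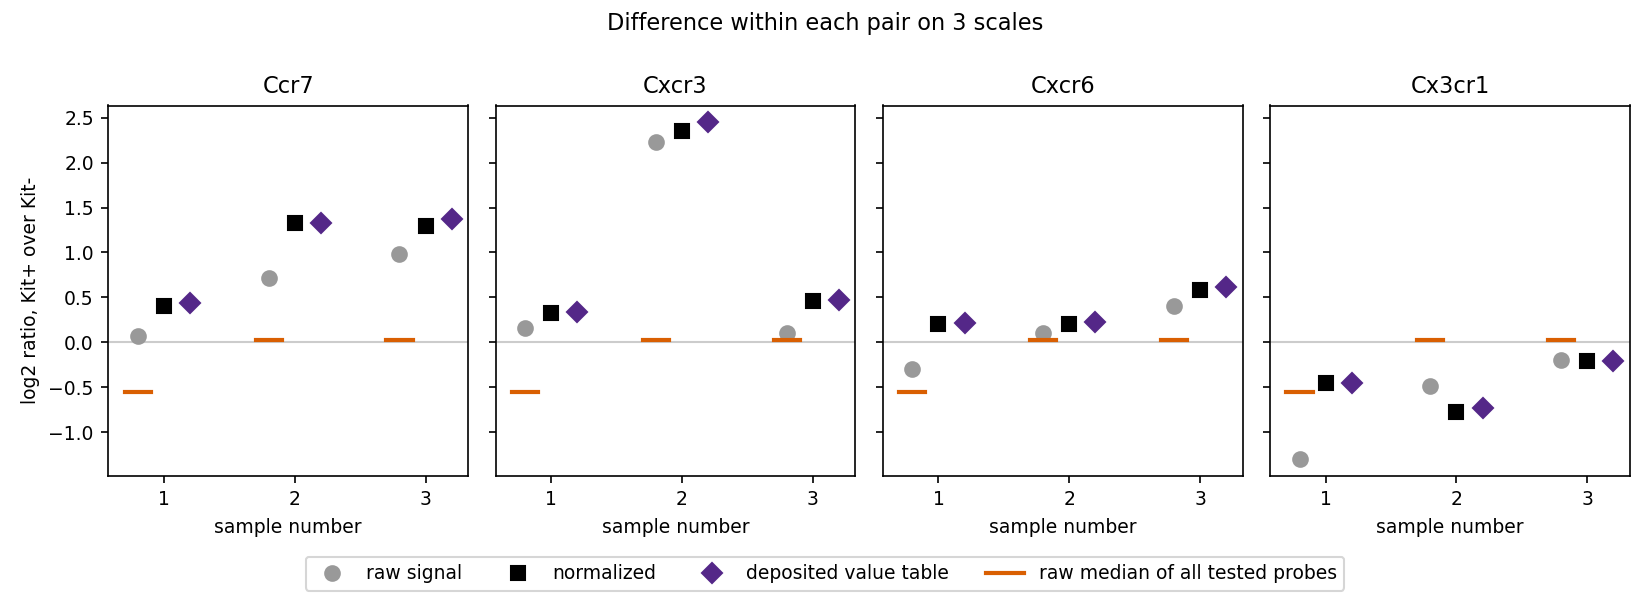
Log2 ratio of Kit+ over Kit- for Ccr7, Cxcr3, Cxcr6 and Cx3cr1 in each of the 3 pairs, from the raw signal, the normalized values and the deposited value table, with orange bars giving the raw median of all tested probes. The Cxcr3 ratio of the pair numbered 2 is 2.35 on the normalized scale, against 0.32 and 0.46 for the other pairs.

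The promoters of Cxcr3, Cxcr6 and Cx3cr1 are shown because the brightest probe of each differed in 1 direction in all 3 pairs. They are from the RefSeq table (GRCm38.p6), which held 7 of the 8 receptors. It held no promoter of Ccr7, which also differed in 1 direction in all 3 pairs, so that promoter is neither shown nor counted. Tbx21 and Eomes are T-box transcription factors of NK maturation, and Tbx21 is known to drive Cxcr3 in T cells. Both were lower in Kit+ (log2 fold -0.94 and -0.95, limma adjusted p = 0.0252 and 0.0126). The promoters were therefore searched on both strands for the T-box motif TCACAC. They were also searched on both strands for the core CACCC bound by factors such as Klf2. Klf2 itself was not called (log2 fold -0.08, limma adjusted p = 0.904). The windows run from 250 bases before to 50 bases after the start site and are given 5′ to 3′ on the strand of the gene, with matches in capitals. They lie at chrX:101734098-101734397 (minus strand), chr9:123806227-123806526 (plus strand) and chr9:120068247-120068546 (minus strand).
Cxcr3: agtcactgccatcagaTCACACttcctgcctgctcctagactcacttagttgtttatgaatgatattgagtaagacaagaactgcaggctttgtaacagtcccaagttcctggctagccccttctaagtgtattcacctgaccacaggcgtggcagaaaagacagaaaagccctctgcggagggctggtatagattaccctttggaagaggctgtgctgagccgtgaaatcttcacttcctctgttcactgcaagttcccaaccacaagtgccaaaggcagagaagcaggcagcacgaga
Cxcr6: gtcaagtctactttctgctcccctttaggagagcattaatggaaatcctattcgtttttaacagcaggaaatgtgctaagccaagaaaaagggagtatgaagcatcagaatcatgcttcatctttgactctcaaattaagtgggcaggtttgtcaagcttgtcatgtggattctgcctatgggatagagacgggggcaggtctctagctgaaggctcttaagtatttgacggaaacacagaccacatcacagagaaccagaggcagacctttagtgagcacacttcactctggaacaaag
Cx3cr1: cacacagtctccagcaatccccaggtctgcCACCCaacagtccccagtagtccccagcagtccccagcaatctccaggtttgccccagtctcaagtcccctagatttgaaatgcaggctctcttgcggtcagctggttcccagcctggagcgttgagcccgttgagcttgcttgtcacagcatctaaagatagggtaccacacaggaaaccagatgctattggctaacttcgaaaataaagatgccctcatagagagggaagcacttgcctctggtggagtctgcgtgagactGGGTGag

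The Cxcr3 window held 1 match to TCACAC, 234 bases before the start site, and none to CACCC. The Cx3cr1 window held 2 matches to CACCC, 1 on each strand, and none to TCACAC. The Cxcr6 window held neither. Of the 7 receptor promoters, 2 held TCACAC (Cxcr3 and Ccr1) and 3 held CACCC (Cxcr4, Cx3cr1 and Ccr9), against 14.5% and 57.5% of all 32851 promoter windows. No matches overlapped. A match describes the letters of the window and shows no binding.

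The genes of 5 of the 8 receptors lie on chromosome 9, and 4 of these stand close together. In the order of the RefSeq table the protein-coding genes of that run are Ccr9, Fyco1, Cxcr6, Xcr1, Ccr1, Ccr1l1, Ccr3 and Ccr2, and 7 of them had a tested probe. None of the 7 passed in limma with the block, and 0 had an unadjusted p under 0.05. By the brightest tested probe of each gene, the log2 folds ran from -0.02 for Ccr1l1, a relative of Ccr1, to 0.33 for Cxcr6, with 0.18 for Ccr3, the eosinophil eotaxin receptor, and 0.06 for Xcr1, the receptor for Xcl1 on cross-presenting dendritic cells. Cxcr6 and Fyco1, a gene of vesicle transport, were above background on all 6 arrays, as was the cDNA clone probe of Ccr2. The genes of Ccr7 and Cxcr3, the receptors with the largest differences, lie on chromosomes 11 and X.

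Other receptors of the family were mostly too dim to compare. Of 9 further chemokine receptors with a probe, 5 were tested (Ccr3, Xcr1, Cxcr2, Cxcr5 and Ccr8), and 0 passed in limma with the block, with 0 at an unadjusted p under 0.05, where 7.06% of all genes passed. Their log2 folds ran from -0.07 to 0.18, and none of the 5 was above background on all 6 arrays. Among 5 tested atypical and related chemoattractant receptors 1 rose, Fpr2, a formyl peptide receptor of neutrophils and monocytes, at least 1.38-fold higher in Kit+ (limma adjusted p = 0.0138, without the block 0.0715). It exceeded background in every Kit+ sample and in no Kit- sample, with mean levels of 7.29 in Kit+ and 6.16 in Kit-. The bound sets the Kit+ mean against the mean background level of the Kit- arrays. In the same comparison 3 of 7 tested neutrophil markers rose (S100a8, S100a9 and Mpo), with a summed level of 1031 to 2751 in Kit+ and 612 to 823 in Kit-, and 2 of 5 tested monocyte markers rose (Fcgr4 and Ifitm6), with 1134 to 1616 in Kit+ and 426 to 454 in Kit-. Without the block 0 of the neutrophil and 2 of the monocyte markers were called higher (limma; with the block 5 and 2 had an unadjusted p under 0.05). Their part in the Fpr2 difference was not tested.

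None of the chemokines that bind these receptors passed. Of 12 tested ligand genes, 0 were higher and 0 lower in limma with the block, with 2 higher and 1 lower at an unadjusted p under 0.05, and the median log2 fold was 0.04. The 1 lower was Ccl3, a ligand of Ccr1, at -1.22 ± 0.31 on the log2 scale (SE, adjusted p = 0.0597 in limma), named after its value was seen. The 2 higher, named in the same way, were Ccl9 at 0.57 (adjusted p = 0.0708 in limma) and Cxcl10 at 0.58 (adjusted p = 0.168 in limma). Over all genes 3.29% were higher and 3.77% lower, 7.06% in all. Of 10 other tested chemokine genes 1 rose, a share near that background: the neutrophil chemoattractant Cxcl2 (log2 fold 1.55, SE 0.15, limma adjusted p = 0.00163). It exceeded background in every Kit+ sample and in Kit- 1, and without the block its adjusted p was 0.209.

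Genes through which chemokine receptors act were lower in Kit+ where they passed the threshold. Of 26 tested genes of receptor signalling, 6 were lower and 0 higher in Kit+ (limma with the block, with 7 lower and 2 higher at an unadjusted p under 0.05), where 3.77% of all genes were lower. The median log2 fold of the list was -0.15, with 11 genes above 0 and 15 below. The 2 higher, named after their values were seen, were Rgs1 at 0.71 (adjusted p = 0.0511 in limma) and Rgs2 at 0.59 (adjusted p = 0.109 in limma). Arrb2, an arrestin that turns receptors off and takes them into the cell, was lower by a log2 fold of -1.25 ± 0.17 (SE, with adjusted p = 0.0067 in limma). For Grk6, a kinase that marks receptors for arrestin, it was -0.998 ± 0.22 (adjusted p = 0.0371 in limma). Gnb1, a G-protein beta subunit, stood at -1.38 ± 0.28 (adjusted p = 0.0307 in limma) and Fermt3, the kindlin that activates integrins in blood cells, at -1.78 ± 0.27 (adjusted p = 0.011 in limma). Without the block 1 of the 6 was called lower, Fermt3, which exceeded background in Kit+ 3 alone of the Kit+ samples.

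Genes of egress and homing other than chemokine receptors were also lower in Kit+ where they passed the threshold. Of 12 tested, 5 were lower and 0 higher (limma with the block, with 6 lower and 1 higher at an unadjusted p under 0.05), where 3.77% of all genes were lower and 3.29% higher. The list median was -0.58, and without the block 2 were lower, Itgal and Itgb2. S1pr5, the sphingosine-1-phosphate receptor by which NK cells leave marrow and lymph nodes, was lower by a log2 fold of -1.98 ± 0.21 (SE, by limma with adjusted p = 0.00226). The integrin chains Itgb2 and Itgal had -2.56 and -1.61, and Cd44, a hyaluronan receptor, had -0.98 from the brightest of 6 tested probes, of which 2 had the opposite sign. Averaged over its probes Cd44 had -0.064 (limma adjusted p = 0.885), which ends its call. The fifth, Selplg, a selectin ligand outside the rule for naming genes and chosen after its value was seen, had -0.87. Of 13 tested NK transcription factors, 4 were lower and 0 higher, against the same shares of all genes (with 6 lower and 0 higher at an unadjusted p under 0.05), and without the block Eomes alone was lower. Beside Tbx21 and Eomes these were Irf8 (log2 fold -0.91) and Ets1, at least 1.53-fold lower in Kit+ by its brightest probe, which exceeded background in no Kit+ sample. Of the 3 tested Ets1 probes 1 had the opposite sign, and with their mean Ets1 had -0.48 and was not called (limma adjusted p = 0.111).

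**Figure D4:**
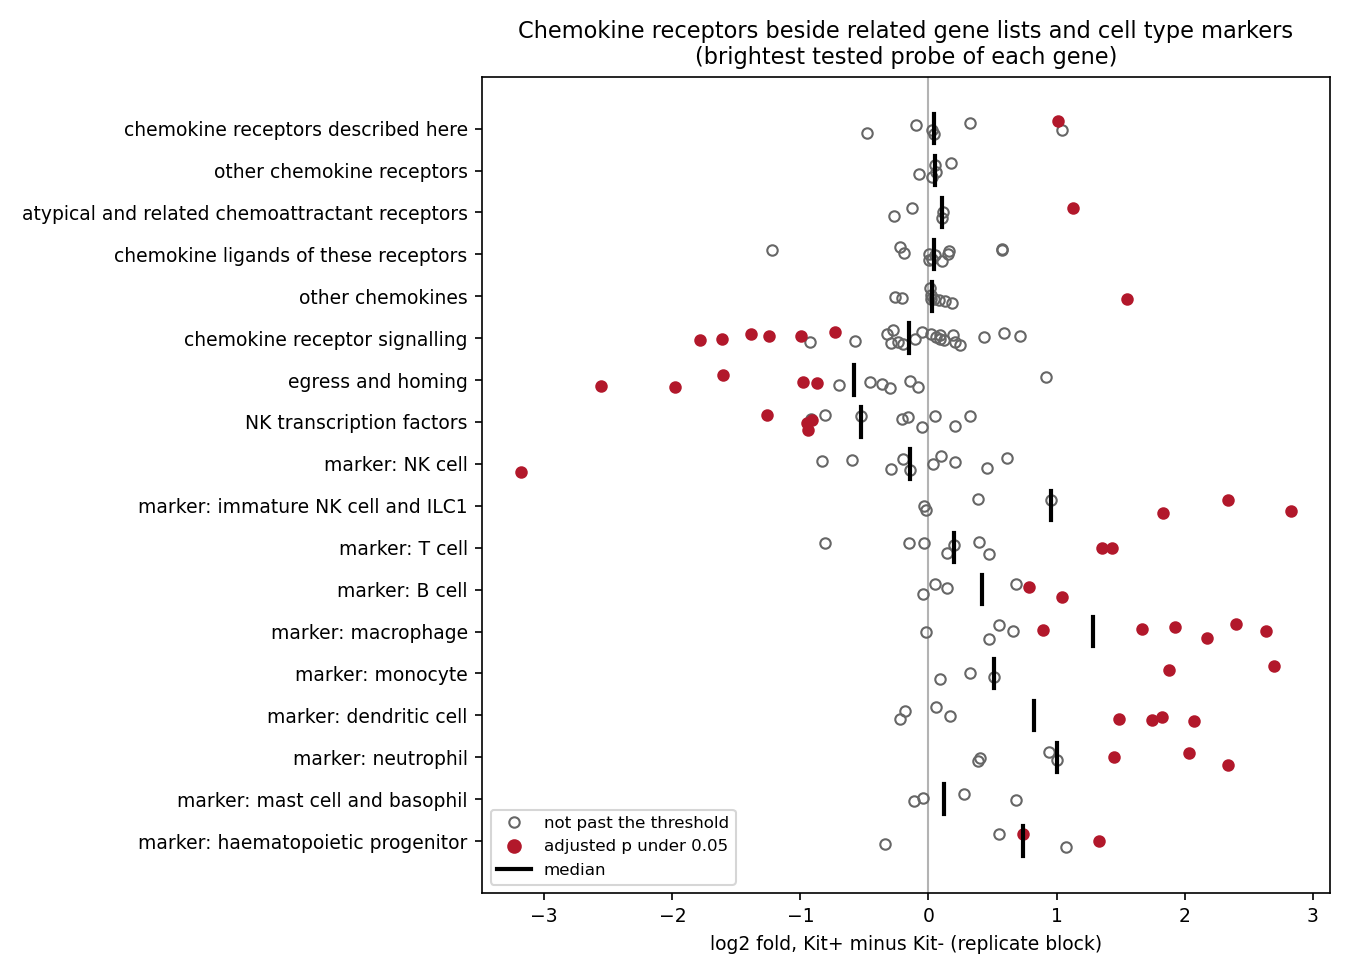
Log2 fold, Kit+ minus Kit-, of the brightest tested probe of each gene, in limma with the sample number as a block, for the chemokine receptors, 7 related gene lists and 10 lists of cell type markers. Filled points passed an adjusted p of 0.05 and black bars are medians. Most receptors and chemokines lie around 0, with Ccr7, Fpr2 and Cxcl2 past the threshold above it. Cxcr3 (1.04) and Ccl3 (-1.22) lie away from 0 without passing, and the macrophage list has a median of 1.28.

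Some markers of other cells moved with the groups for the remaining lists too, read against 3.29% of all genes higher and 3.77% lower. As these lists were chosen with earlier results of these data known, the counts describe the lists and are no independent test. Of 10 tested macrophage markers, 6 rose and 0 fell, with a summed level of 3121 to 3581 in Kit+ and 1027 to 1044 in Kit-, and with Cd163 and Spic too dim to be tested. Without the block 5 of the macrophage and 0 of the progenitor markers were called higher (limma; 4 progenitor markers had an unadjusted p under 0.05 with it). Of 5 tested progenitor markers 2 rose (Lmo2 and Tal1), and of 4 tested mast cell and basophil markers none passed (1 higher at an unadjusted p under 0.05 in limma). Of 7 tested markers of immature NK cells and type 1 innate lymphoid cells, Emb and Il7r rose. Of the 3 tested Il7r probes 1 had a sign opposite to the brightest. Cd7, Tnfsf10, Cd27 and Thy1 of this list did not pass, with log2 folds of 0.96, 0.39, -0.02 and -0.03. Kit of this list, by whose product the groups were sorted, rose too. Among 11 tested NK-cell markers 1 fell (Prf1), with 5 log2 folds above 0 and 6 below. Their summed level was 34602 to 37307 in Kit+ and 41132 to 47927 in Kit-. Ccr2, Cx3cr1 and Ccr1, which monocytes and macrophages also carry, were not higher in Kit+ by any probe past the threshold. Ccr1, Cx3cr1 and the RefSeq probe of Ccr2 lay near background, and nothing is concluded from them. The cDNA clone probe of Ccr2, above background on all 6 arrays, had a log2 fold of 0.02. The part of such cells in the receptor levels was not tested.

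The genes whose levels followed a receptor most closely were found by Pearson's r over the 6 arrays, among 11431 other genes by their brightest tested probe, and with so few arrays high values arise for many genes. For Ccr7 these were H2-Ob (0.993), Tmem170 (0.977) and Hmox1 (0.975), of which Hmox1 rose in Kit+ (log2 fold 1.65, limma adjusted p = 0.00629). For Cxcr3 they were Shmt2 (0.995), Pitpnm2 (0.995) and Tpcn2 (0.991), and for Cx3cr1 they were Wdr24 (0.994), Zbtb7a (0.989) and Bcl9l (0.985). Zbtb7a and Bcl9l, both transcriptional regulators, were lower in Kit+ (log2 fold -1.24 and -1.14, limma adjusted p = 0.0313 and 0.0214). For Cxcr6 they were Mapk12 (0.979), Git1 (0.971) and Retsat (0.970), and for Cxcr4 they were Xirp1 (0.996), Carmil3 (0.981) and Ap5s1 (0.979). For the dim Ccr1 they were Pdia6 (0.988), Scaf8 (0.972) and the odorant receptor Olfr922 (0.966). For the cDNA clone probe of Ccr2 they were Ugt2a1 (0.998), Smtnl1 (0.997) and Tmem106a (0.996). Several of these genes were dim: Tmem170 and Olfr922 were above background on no array, Xirp1, Carmil3 and Pdia6 on 1 each and Smtnl1 on 2. Among the receptors themselves, Ccr7 and Cxcr3 correlated at 0.793 and Cxcr3 and Cx3cr1 at -0.663 over the 6 arrays, which share the pairing and the sorted groups.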

How the data were processed

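RNA of 6 samples was amplified and labelled with biotin by an Illumina kit, per the labels' protocols, and read on 1-colour arrays. Each deposited array file gives the unnormalized intensity of every probe, per the file headers, without detection calls. BeadStudio 3.1.1.0 is named in the submitters' processing notes. In the value table the authors deposited, intensity equals a quantile normalization of the raw signal without background correction to within 0.123 units, so its scale is linear and it is not centred (column medians 92.8). The raw signal was corrected with normexp (offset 50), and log2 values of this deposited signal were quantile normalized in limma 3.58.1 (R 4.3.3). Probes with a mean above the median of all were tested (22994) with lmFit and eBayes, with the title number as a block, and p-values were adjusted by Benjamini-Hochberg over all of them at 0.05. Deviations from group means correlated at 0.632, 0.537 and 0.324 between same-numbered samples and at -0.541 to 0.0538 between others. Deviations sum to 0 within a group, so positive values for same numbers push the others down, and the contrast is no separate evidence. The series' text says that both the sorts and the comparison were repeated, and same-numbered samples were treated as pairs. Of 45988 probes, 29457 had 1 gene symbol, 11 several and 16520 none listed. For 29399 probes the symbol was found by gene ID in RefSeq (GRCm38.p6).

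The receptors and gene lists were chosen with earlier results of these data known. Named beside the receptors were Kit, Klrb1c and Cd3e, up to 4 genes of each list with the smallest p past the threshold, and the 3 genes most like each tested receptor. Klrb1c had a log2 fold of -0.60 (limma adjusted p = 0.0737) and Cd3e of -0.81 (limma adjusted p = 0.126). Nothing says how separate the mice of each sort were, so p-values cover only the spread seen here, which may be technical. The number of arrays limits the precision.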

Additional observations from a re-analysis of the deposited data

How the results depend on the processing

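The samples were fitted with the sample number as a block. Without the replicate block, limma called 77 probes higher and 186 lower in place of 518 and 824, all 263 of them also called with it in the same direction, and 0 receptor probes were higher in place of 1 (2 higher and 1 lower at an unadjusted p under 0.05). With median centring 15 probes were higher, 18 lower and 0 receptor probes higher (2 at an unadjusted p under 0.05 in limma). At the gene level 453 were higher and 515 lower with the brightest probe, and 331 higher and 481 lower with the mean of the probes. Leaving out both samples of 1 number, with the block, gave 91 to 684 probes higher, 186 to 853 lower and 0 to 2 receptor probes higher, the lowest counts of all probes being those without number 2. Leaving out 1 sample without the block gave 12 to 40 higher (12, 14, 26, 28, 30 and 40), 36 to 136 lower (36, 51, 53, 70, 74 and 136) and 0 receptor probes higher (0 to 2 receptor probes at an unadjusted p under 0.05 in either direction). Ccr7 passed under 8 of 18 alternatives (limma adjusted p 0.000501 to 0.708) and Cxcr3 under 1, the fit without number 1 (0.00599 to 0.65). Cx3cr1, Cxcr6, Cxcr4, Ccr1 and Ccr2 passed under none. Ccr7, Cxcr3, Cxcr6, Cx3cr1 and the RefSeq probe of Ccr2 kept their direction under every alternative that held them. Directions turned for 3 probes with folds near 0. With 1 number left out in turn, Ccr1 ran from -0.060 to 0.129, Cxcr4 from -0.251 to 0.140 and the cDNA clone probe of Ccr2 from -0.096 to 0.236. Without the block, Ccr1 had -0.033 without Kit- 1, Cxcr4 had 0.063 without Kit+ 1, and the clone probe had -0.264 without Kit- 1, -0.056 without Kit+ 2 and -0.064 without Kit+ 3. As the mean of both probes Ccr2 had -0.138. The cause was not tested. Dim probes limit what can be seen: Ccr1, Ccr9, Cx3cr1 and the RefSeq probe of Ccr2 lay near background.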
